A study of Rattus norvegicus with 12 samples.

Results

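The livers of rats collected 24 h after partial hepatectomy (PH) were compared with those collected 12 h after it, in each of 3 surgical groups, to find the transcripts that moved between these times whatever the surgery. A gene was counted as a member when its level at 24 h was at least 2-fold higher, or at least 2-fold lower, than at 12 h in all 3 groups, after 1 RPKM (reads scaled to transcript length and to the size of the library) was added to each level. Genes entered where their average level in the 12 columns of the series reached 1 RPKM, and of these 8459 genes 347, or 4.1%, were members, of which 328 were higher at 24 h and 19 were lower. Since the level at 24 h over that at 12 h chose the members, their ratios are given as a description and carry no test.

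All rats were male Sprague Dawley animals of 4 to 5 months, as the study's methods give it, with a catheter in the duodenum that delivered saline. PH was done 24 h after a first operation, which was a sham operation in the Cont group and a biliary fistula, an external drain for bile, in the BA and BF groups. In 1 of these 2 groups sodium taurocholate, a bile acid, was also infused into the duodenum. The sample descriptions assign this infusion to the BF samples and the study's text assigns it to those it calls BA, so the columns are named here by their prefix only; each gene was compared with itself within a prefix, which does not depend on that choice. Each column combines 2 sequencing runs, the first on 1 rat and the second on the pooled RNA of 3 rats, so there was 1 column per group and time, with no spread between replicates, and the 3 pairs were the only repeats of the comparison. The clock time of collection was not given in the sources used here, so time after PH cannot be told apart from time of day.

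After PH the remaining hepatocytes, which rarely divide in the adult, enter the cell cycle, replicate their DNA and divide while the liver goes on with its metabolic work. Transcription of S phase genes is driven largely by E2F factors. Genes of G2 and mitosis are repressed by the DREAM complex in resting cells and activated later by the MMB complex with FOXM1. These complexes act at short elements called CHR, often near CCAAT boxes bound by NF-Y. The injured liver also makes acute phase proteins, and the transcripts of many enzymes of the differentiated hepatocyte fall early and return later.

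The summed RPKM of the 6 columns lay between 727435 and 765516, and the 10 most abundant genes held between 29.4% and 41.0% of it, with a lower share at 24 h than at 12 h in each pair. Read totals were not part of the table, so depth is unknown. The median tested gene was higher at 24 h by 0.37, 0.28 and 0.35 on the log2 scale in the Cont, BA and BF pairs, and 69.6% of tested genes were higher in all 3 pairs against 5.98% lower in all 3. The member counts were 3.88% of tested genes for the higher and 0.225% for the lower direction. With the columns rescaled so that their median tested gene was equal, 199 genes were 2-fold higher and 60 were 2-fold lower in all 3 pairs, so that 76.8% of the members were higher in place of 94.5%. The markers of hepatocytes summed to between 71689 and 93537 RPKM in the 6 columns. Those of Kupffer cells went from between 146 and 167 RPKM at 12 h to between 196 and 219 RPKM at 24 h, and those of stellate cells and fibroblasts from between 33.2 and 34.2 RPKM to between 58.8 and 63.2 RPKM. The medians of the mean log2 ratio were 0.31 for the Kupffer list and 0.72 for the stellate and fibroblast list, against 0.33 for all tested genes. The part of these markers in the results was not tested. Because this is whole liver, a shift in the cells present cannot be told apart from a shift in RNA per cell.

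Of the 328 risen members, 167 encode proteins of the cell cycle, DNA and chromatin, 72 enzymes or transporters of metabolism and detoxification, 13 parts of the cytoskeleton and 76 other or unnamed products. In 100 of them the rise was at least 4-fold in all 3 pairs, in 42 at least 8-fold and in 16 at least 16-fold, against 1 fallen member with a fall of at least 4-fold in all 3. The columns at 24 h did not overlap those at 12 h in 322 risen members and in all 19 fallen members, which largely follows from the rule; over all tested genes they lay wholly above the 12 h columns in 55.9% and wholly below them in 3.11%. For 98 risen members the mean over the 9 columns outside 24 h was under 1 RPKM, so that they entered the comparison only through the 24 h columns, and 79 of these were cell cycle, DNA and chromatin genes. When the filter was set on the 6 columns at 0 and 4 h, 227 risen and 19 fallen members remained.

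The promoters of 264 risen and 15 fallen members are in the RefSeq table used here, as are those of 6829 of the 8459 tested genes. The 250 bases before each start site were searched on both strands. As E2F words the search took the motif TTGGCGC and its common variant TTCCCGC, the first of which can overlap a CCAAT box read on the other strand. As CHR words it took the motif TTTGAA and its common variant TTCGAA. The CCAAT box was searched as those 5 letters and the E box as CACGTG. The 5 windows below belong to the highest-ranked members with an entry in the table: a pair of mitotic genes, a replication helicase gene, a metabolic gene and a fallen gene. They are from build GRCr8, in the direction of transcription and ending at the base before the annotated start, with matches to any of these words in capitals.
CCNB1 (cyclin B1, chr2:33655226-33655475, minus strand): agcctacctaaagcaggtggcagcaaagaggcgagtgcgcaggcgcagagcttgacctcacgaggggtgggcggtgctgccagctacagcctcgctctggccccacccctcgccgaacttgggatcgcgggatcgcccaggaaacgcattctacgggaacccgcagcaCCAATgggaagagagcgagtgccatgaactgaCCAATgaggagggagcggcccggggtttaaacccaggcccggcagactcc
CDC2 (cyclin-dependent kinase 1, RefSeq Cdk1, chr20:19265043-19265292, plus strand): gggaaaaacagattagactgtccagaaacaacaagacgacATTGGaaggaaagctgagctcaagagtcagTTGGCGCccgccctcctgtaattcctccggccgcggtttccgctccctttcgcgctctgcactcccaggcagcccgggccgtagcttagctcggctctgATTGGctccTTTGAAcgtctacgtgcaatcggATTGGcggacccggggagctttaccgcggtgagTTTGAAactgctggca
GINS1 (GINS subunit, chr3:160184670-160184919, plus strand): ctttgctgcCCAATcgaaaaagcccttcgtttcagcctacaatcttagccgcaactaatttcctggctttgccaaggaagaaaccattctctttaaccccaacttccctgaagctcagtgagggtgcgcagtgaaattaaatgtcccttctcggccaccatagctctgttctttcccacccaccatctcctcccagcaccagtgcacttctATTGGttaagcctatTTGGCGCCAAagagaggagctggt
AOX3 (aldehyde oxidase, chr9:67158750-67158999, plus strand): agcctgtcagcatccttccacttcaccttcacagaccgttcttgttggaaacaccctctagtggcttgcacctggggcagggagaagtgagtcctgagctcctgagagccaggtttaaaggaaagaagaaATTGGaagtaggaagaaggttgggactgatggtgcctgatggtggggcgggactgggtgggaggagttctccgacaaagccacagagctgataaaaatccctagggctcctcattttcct
SLC13A5 (citrate transporter, chr10:57388849-57389098, minus strand): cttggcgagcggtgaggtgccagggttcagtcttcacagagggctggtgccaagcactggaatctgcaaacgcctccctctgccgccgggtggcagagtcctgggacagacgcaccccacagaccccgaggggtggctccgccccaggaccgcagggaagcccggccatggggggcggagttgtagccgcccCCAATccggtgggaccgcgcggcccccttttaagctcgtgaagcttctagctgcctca

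The CDC2 window holds a CHR word 72 bases and another 16 bases before the start, with CCAAT boxes on the other strand 81 and 49 bases before it, and the GINS1 window holds E2F words on both strands at 24 and 21 bases before the start. Among the 38 risen genes of the mitosis list with a window, 57.9% held a CHR word and 52.6% held a CHR word together with a CCAAT box. The shares were 11.9% and 4.82% of the windows of all tested genes. An E2F word was present in 25.7% of the 140 windows of the risen cell cycle, DNA and chromatin members, against 10.2% of all tested genes. By list, the share was 54.5% of 11 windows for licensing and helicase, 50% of 6 for DNA repair, 19% of 21 for DNA synthesis and 13.2% of 38 for mitosis, and none of the 3 windows for G1 and S phase control held one. In the 59 windows of the risen metabolic members the share with an E2F word was 10.2% and that with a CHR word 16.9%. An E box stood in 5% of the windows of the cell cycle members and 5.08% of those of the metabolic members, below the 8.62% of all tested genes. Over all 33469 promoters in the table, which include those of genes outside these data, the shares were 5% for E2F, 17.4% for CHR, 34% for the CCAAT box and 5.59% for the E box. A match says only that the letters are in the window.

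Mitotic genes rose most. CCNB1, whose protein activates the kinase that starts mitosis, was listed at 0.57, 0.25 and 1.05 RPKM at 12 h in the Cont, BA and BF columns and at 95.3, 67.2 and 92.0 RPKM at 24 h. All 24 h levels were far above all 12 h levels, and the log2 ratios were 5.94, 5.77 and 5.50 in the 3 pairs. CDC2, that kinase itself, went from 0.40, 0.34 and 1.97 RPKM to 136, 76.0 and 113 RPKM, with a mean log2 ratio of 5.91 ± 0.68 (SD, n = 3 pairs). TOP2A, the topoisomerase that untangles replicated chromosomes, went from 0.30, 0.26 and 0.94 RPKM to 71.7, 39.1 and 57.9 RPKM. In these genes the BA column was the lowest of the 3 at 24 h, while at 12 h the BF column was the highest. HMMR, KIF20A, KIF22, UBE2C, CDCA3, PRC1, PTTG1, TRAF4AF1, AURKB, PBK, NUF2 and CDC20 completed the 15 risen members ranked by their smallest ratio, and their smallest log2 ratios ran from 4.68 to 4.04. Among them, PTTG1 is securin, which restrains the separation of sister chromatids until anaphase. CDC20 and UBE2C serve the anaphase-promoting complex, and PRC1 and KIF20A build the midzone of the dividing spindle. CDC20 was listed at 0.96, 0.66 and 1.71 RPKM at 12 h, then at 83.4, 84.8 and 43.6 RPKM at 24 h, and here the BF column was the lowest at 24 h. KIF20A differed little among the surgical groups, with 59.8, 60.1 and 63.3 RPKM at 24 h and a mean log2 ratio of 4.76 ± 0.11 (SD, n = 3 pairs).

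**Figure D1:**
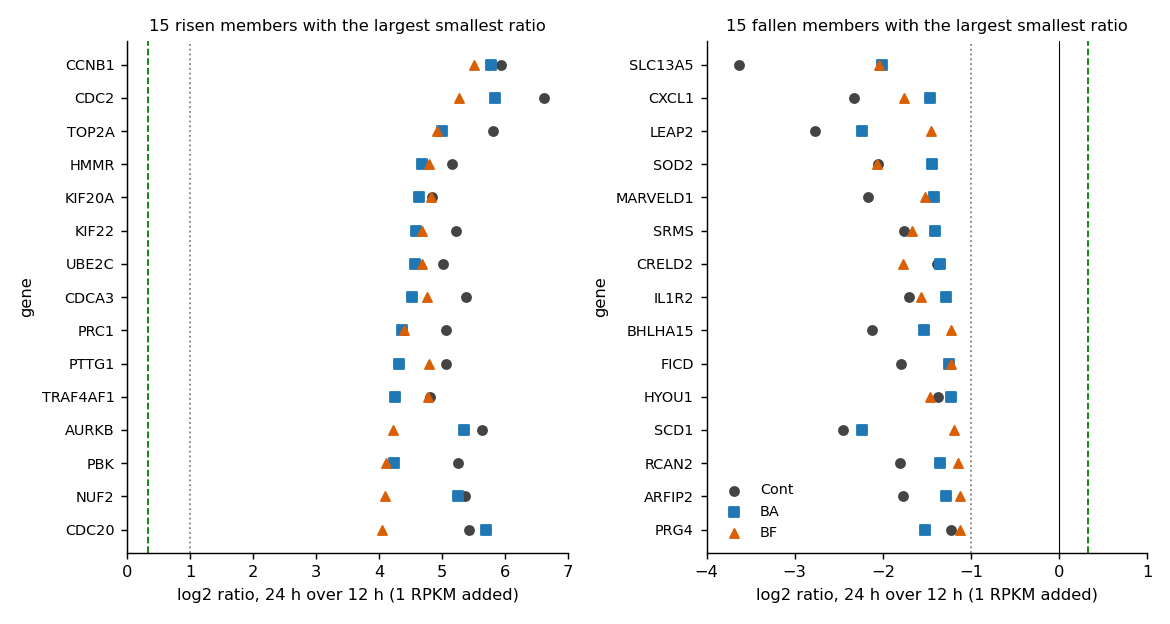
Log2 ratio of the level at 24 h over that at 12 h (x axis, 1 RPKM added) for the 15 risen and the 15 fallen members (y axis) with the largest smallest ratio; each symbol is 1 pair, the dotted line is the 2-fold limit and the dashed line the median of all tested genes. The risen genes lie between 4.04 and 6.61 in every pair and the fallen ones between -3.63 and -1.12.

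Of the 44 tested genes of the mitosis and cytokinesis list all 44 were risen members, against 3.88% of all tested genes, with a list median of the mean log2 ratio of 3.80. Only 10 of the 44 averaged 1 RPKM or more at 0 and 4 h, and all 10 of these were members. After rescaling on the median gene 43 of the 44 still passed. FOXM1, the transcription factor of this programme, was listed at 0.56, 0.76 and 0.72 RPKM at 12 h, then at 14.4, 7.93 and 10.5 RPKM at 24 h. Its 24 h levels were all above its 12 h levels, with log2 ratios of 3.31, 2.34 and 2.74. AURKA went from 0.91, 1.33 and 1.59 RPKM to 27.6, 19.1 and 27.2 RPKM. AURKB, its relative at the centromere, went from 0.16, 0.23 and 0.58 RPKM to 56.6, 49.1 and 28.4 RPKM. PLK1, a kinase of mitotic entry and cytokinesis, went from 0.14, 0.08 and 0.41 RPKM to 36.0, 32.2 and 13.9 RPKM. The Cont column was the highest at 24 h in all 3 of these kinases, but BA was the lowest in AURKA and BF the lowest in AURKB and PLK1.

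The genes of DNA synthesis rose less steeply, from a higher level at 12 h. Of 31 tested genes of the DNA synthesis and nucleotide supply list 23 were risen members, with a list median of 2.33, and all 31 were higher in all 3 pairs. PCNA, the sliding clamp of the replication polymerases, was listed at 26.8, 21.3 and 30.4 RPKM at 12 h, then at 381, 353 and 75.2 RPKM at 24 h. The lowest 24 h level was thus still above the highest 12 h level, but the log2 ratio of 1.28 in the BF pair was far below those of 3.78 and 3.99 in the Cont and BA pairs. RRM1, the large subunit of ribonucleotide reductase, went from 7.31, 7.22 and 9.17 RPKM to 73.0, 40.1 and 53.9 RPKM, so that BA and not BF was the lowest at 24 h. PCNA belongs to a gene set of the study, and RRM1 does not; the order of the groups in that set is uncertain, as described with its genes. LIG1, the ligase that joins Okazaki fragments, went from 2.77, 2.64 and 4.17 RPKM to 46.8, 52.5 and 18.2 RPKM. DUT, which keeps uracil out of DNA, went from 4.36, 3.64 and 5.07 RPKM to 42.7, 23.6 and 35.0 RPKM. RFC4, a subunit of the clamp loader, ASF1B, a histone chaperone, and UHRF1, which directs maintenance methylation, were also among the members of this list with the largest smallest ratios, of 2.37, 2.51 and 2.20.

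Of 20 tested genes of origin licensing and the replicative helicase 12 were risen members, and all 20 were higher in all 3 pairs. MCM5, a subunit of the helicase, was listed at 1.80, 1.26 and 4.63 RPKM at 12 h, then at 61.9, 64.2 and 18.5 RPKM at 24 h. MCM7 went from 10.4, 8.39 and 12.6 RPKM to 119, 96.5 and 40.1 RPKM, and GINS1 from 1.13, 0.90 and 2.32 RPKM to 46.7, 46.1 and 15.4 RPKM. In these genes both the Cont and the BA level at 24 h lay more than 2-fold above BF. The list median was 2.64 in the Cont pair, 2.67 in the BA pair and 1.26 in the BF pair. MCM5, MCM7 and GINS1 belong to the study's gene set, in which the order of the groups is uncertain, as described with its genes. GINS3, TIMELESS and ORC6L are risen members of this list whose symbols here are not in that set. Their differences of BF minus BA at 24 h on the log2 scale were 0.29, -0.04 and 0.25.

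Of 12 tested genes of DNA repair and recombination 11 were risen members, with a list median of 2.00. BRCA1, which acts in repair by recombination, went from 0.75, 1.07 and 1.35 RPKM to 9.38, 6.34 and 8.78 RPKM, lowest in the BA column at 24 h. FANCD2, of the interstrand crosslink repair pathway, had the largest smallest log2 ratio of the list, at 2.86.

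Among 14 tested genes of G1 and S phase control 6 were risen members. CCNA2, the cyclin of S phase and G2, had the largest smallest log2 ratio of the list, at 3.97, and rose from 0.29, 0.19 and 0.87 RPKM to 46.2, 59.8 and 28.2 RPKM. E2F1 went from 0.48, 0.45 and 1.22 RPKM to 23.3, 26.0 and 7.17 RPKM. CCNE1 and CCNE2, which drive entry into S phase, had smallest log2 ratios of 1.40 and 1.27. Some of the inhibitors in this list, though not all, were also members. CDKN1A, the p21 protein, went from 27.8, 14.2 and 7.93 RPKM to 86.8, 78.9 and 30.4 RPKM. CDKN2C, the p18 protein, had a smallest log2 ratio of 2.73. CCND1, the cyclin that carries growth signals into G1, was not a member, because its log2 ratio was 0.78 in the BA pair against 2.06 in the Cont and 1.24 in the BF pair. It was listed at 11.2, 10.7 and 6.71 RPKM at 12 h, then at 49.9, 19.1 and 17.2 RPKM at 24 h.

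Together, the 5 lists of the cell cycle held 121 tested genes, of which 96 were risen members and none was a fallen member. The median of their mean log2 ratios was 2.57, against 0.33 for all tested genes, and 2.13 after rescaling. Of the 65 that averaged 1 RPKM or more at 0 and 4 h, 42 were risen members, and 81 of the 121 passed after rescaling. Limma's moderated test with the prefix as a block called 45.9% of all tested genes higher at 24 h and 2.52% lower at an adjusted p under 0.05. It treats the 3 pairs as repeats although their surgery differed, and it uses the columns that chose the members, so its counts are given as a description. After rescaling it called 617 genes higher and 855 lower in place of 3880 and 213.

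Many histone and chromatin genes and several tubulin genes also rose. Of 11 tested genes of histones and chromatin assembly 8, or 72.7%, were risen members, against 3.88% of all tested genes. After rescaling 5 of the 11 passed. H2AFZ, the replacement histone H2A.Z, was listed at 26.2, 29.4 and 29.1 RPKM at 12 h, then at 218, 133 and 194 RPKM at 24 h. EZH2, the methyltransferase of the Polycomb complex, went from 2.55, 2.35 and 2.44 RPKM to 18.4, 8.36 and 11.6 RPKM. The 24 h columns of both lay wholly above the 12 h columns, highest in Cont and lowest in BA. STMN1, which destabilises microtubules, went from 1.05, 1.26 and 2.73 RPKM to 67.9, 32.3 and 56.8 RPKM. Of 15 tested genes of tubulin, actin and keratin 7, or 46.7%, were risen members, STMN1 among them, and 8 were not members. After rescaling 5 of the 15 passed. The risen tubulin genes TUBB5, TUBB2C, TUBA1B, TUBB6 and TUBA1C had mean log2 ratios between 1.21 and 2.26. Tubulin genes resemble one another closely, so reads may have been shared among them and each single value is uncertain.

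**Figure D2:**
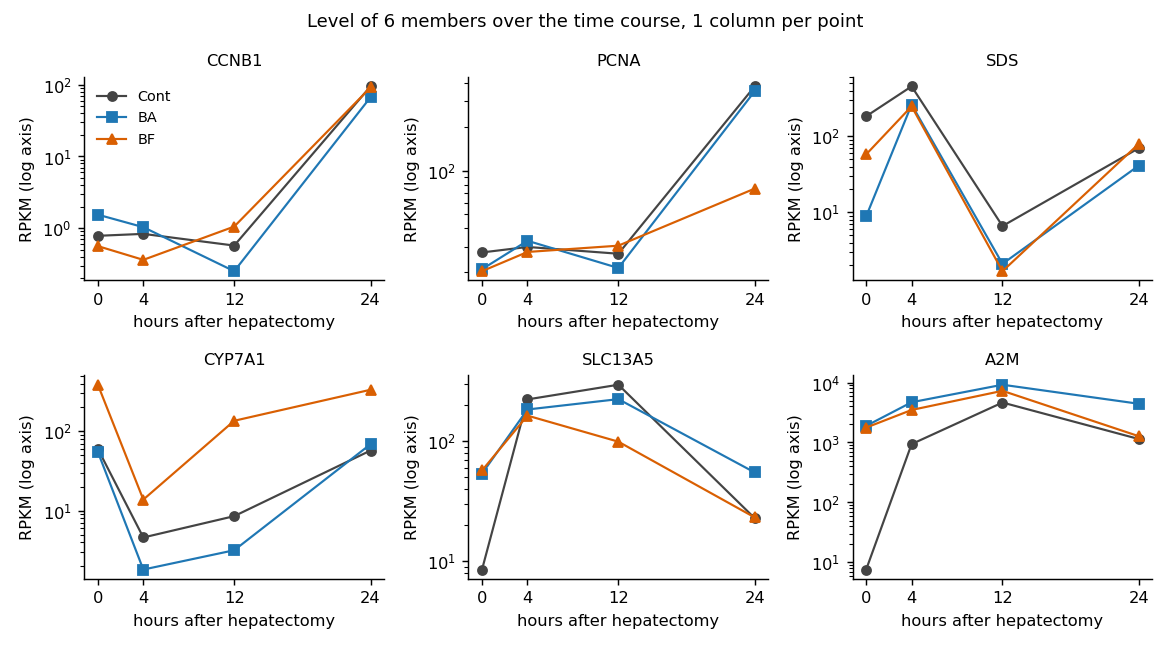
Level (y axis, RPKM on a log axis) of 6 members at 0, 4, 12 and 24 h after PH (x axis); each point is 1 column and each line 1 prefix. CCNB1 and PCNA rose after 12 h, SDS and CYP7A1 were lower at 12 h than at 24 h, and SLC13A5 and A2M were higher at 12 h than at 24 h, in every prefix.

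The cell cycle and the metabolic members among the risen genes had different time courses. At 12 h 122 of the 167 cell cycle, DNA and chromatin members, or 73.1%, were within 2-fold of their 0 h level in all 3 prefixes. The share over all tested genes was higher, at 82.5%. At 24 h 128 of the 167 were at least 2-fold above their 0 h level in all 3 prefixes, against 2.54% of all tested genes. Their median level in the Cont columns was 0.97 RPKM at 0 h, 0.94 RPKM at 12 h and 21.1 RPKM at 24 h. Of the 72 metabolic members, by contrast, 39 were at least 2-fold below their 0 h level at 12 h in all 3 prefixes, against 2.7% of all tested genes. At 24 h 31 of the 72 were within 2-fold of the 0 h level in all 3, against 83.6% of all tested genes, 5 were at least 2-fold above it and 5 at least 2-fold below. The median metabolic member in the Cont columns went from 80.3 RPKM at 0 h to 46.4 RPKM at 4 h, 14.2 RPKM at 12 h and 63.5 RPKM at 24 h. The comparisons with 0 h share the 12 h and 24 h columns with the rule that chose the members.

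**Figure D3:**
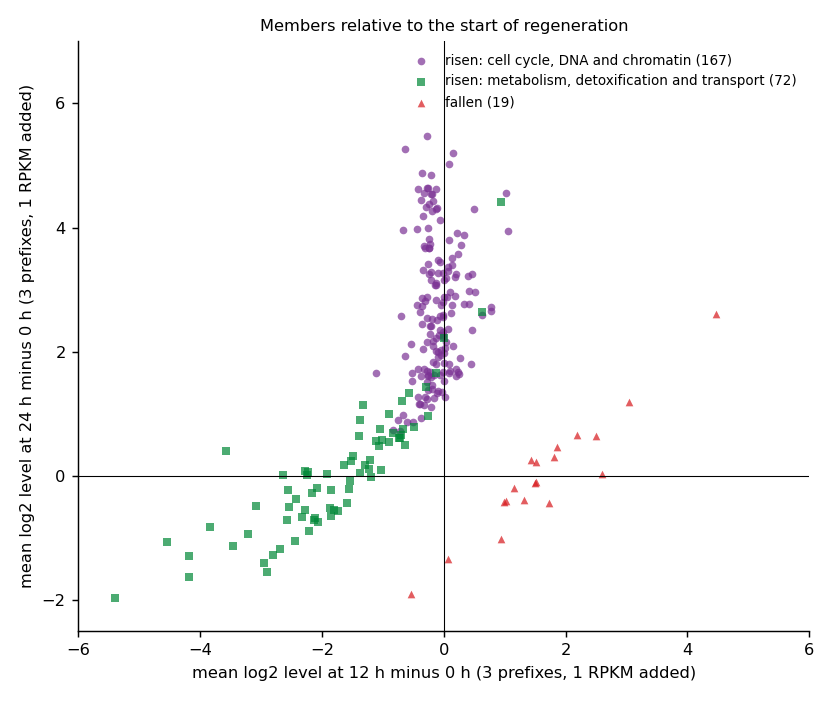
Mean log2 level over the 3 prefixes at 12 h minus 0 h (x axis) and at 24 h minus 0 h (y axis), with 1 RPKM added, for the 167 cell cycle, 72 metabolic and 19 fallen members; each point is 1 gene. The cell cycle members lie near 0 on the x axis and above 0 on the y axis, most metabolic members lie left of 0, and 18 of the 19 fallen members lie right of it.

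The metabolic members were led by SDS, serine dehydratase, which feeds serine into gluconeogenesis. It was listed at 184, 8.85 and 57.9 RPKM at 0 h and was higher at 4 h, at 455, 261 and 248.5 RPKM. The levels were 6.60, 2.10 and 1.68 RPKM at 12 h, then 70.0, 41.3 and 79.8 RPKM at 24 h. The 24 h columns were all above the 12 h columns, and BA and BF, but not Cont, ended above their own 0 h level. CTH, which makes cysteine from cystathionine, went from 62.8, 61.6 and 121 RPKM at 12 h to 772, 254 and 544 RPKM, and CBS, the enzyme before it, from 99.7, 81.2 and 84.3 RPKM to 252, 176 and 247 RPKM. SLC25A15, the ornithine carrier of the urea cycle, and KMO, of tryptophan breakdown, were the other members among 45 tested genes of the urea cycle and amino acid breakdown, 5 in all. Their share was 11.1%, against 3.88% of all tested genes, and 2 of the 45 were 2-fold higher in all 3 pairs after rescaling. The median of this list was 0.57, and 0.09 after rescaling.

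Of 28 tested genes of bile acid synthesis and transport 7, or 25%, were risen members, against 3.88% of all tested genes. This was the highest count of any metabolic list, but the share was higher in the NRF2 list, at 27.8%. After rescaling 2 of the 28 were 2-fold higher and 1 was 2-fold lower in all 3 pairs. The list median of the mean log2 ratio was 0.68, and 0.21 after rescaling. CYP7A1, the rate-limiting enzyme of bile acid synthesis, was listed at 8.53, 3.17 and 136 RPKM at 12 h, then at 57.3, 68.8 and 334 RPKM at 24 h. The columns at the 2 times overlapped, since the BF column at 12 h stood above the Cont and BA columns at 24 h; at 0 h the levels were 60.0, 54.9 and 387 RPKM. NR0B2, the SHP protein, a repressor induced by bile acids, went from 0.45, 0.36 and 1.21 RPKM to 30.2, 5.38 and 10.4 RPKM. BAAT, which conjugates bile acids to taurine or glycine, went from 237, 220.2 and 326 RPKM to 817, 766 and 987 RPKM. SLC10A1 and SLCO1B2, carriers that take up bile acids and other anions from the blood, had mean log2 ratios of 1.54 and 1.89. SLC10A1 was still low at 24 h, at 198, 195 and 200.1 RPKM against 616, 446 and 536 RPKM at 0 h. AKR1D1, a reductase of the synthesis pathway, had a mean log2 ratio of 1.41 with overlapping columns. ABCG5, the seventh, moves sterols into bile and went from 3.59, 2.08 and 2.20 RPKM to 13.8, 7.68 and 6.23 RPKM.

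Among the genes of detoxification, 5 of 18 tested NRF2 antioxidant genes were risen members, and 2 of the 18 passed after rescaling. NFE2L2, which encodes NRF2 itself, was listed at 27.0, 32.4 and 52.4 RPKM at 12 h, then at 104, 85.9 and 108 RPKM at 24 h. EPHX1, which opens epoxides, went from 97.6, 64.2 and 103 RPKM to 508, 311 and 454 RPKM. GCLC, the rate-limiting enzyme of glutathione synthesis, GSR, which recycles glutathione, and AKR7A3, which reduces aflatoxin aldehydes, had mean log2 ratios of 1.52, 1.26 and 2.33. Of 29 tested conjugation enzymes GSTT3, SULT2A1 and UGT2B17 were members, with mean log2 ratios of 1.94, 2.04 and 1.77. This was a share of 10.3%, against 3.88% of all tested genes, and 2 of the 29 passed after rescaling. Of 32 tested cytochromes P450 of drug and steroid metabolism CYP2E1 and CYP17A1 were members, a share of 6.25%, near that of all tested genes. After rescaling 0 of the 32 were 2-fold higher and 1 was 2-fold lower in all 3 pairs, and the list median was 0.03. CYP2E1 went from 589, 462 and 375 RPKM to 1644, 985 and 1007 RPKM. Several of these genes belong to families of close relatives, among which reads may have been shared.

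The most abundant risen member was ADH1, alcohol dehydrogenase, at 218, 217 and 748 RPKM at 12 h and 1363, 1269 and 2328 RPKM at 24 h, followed by CYP2E1, CYB5A, BAAT and SULT2A1. Its columns did not overlap, although the BF column at 12 h was more than 3-fold above the others at that time. AOX3, aldehyde oxidase, went from 1.35, 0.27 and 3.72 RPKM to 20.2, 17.6 and 48.6 RPKM, and FMO1, a monooxygenase of nitrogen and sulfur compounds, from 3.42, 2.10 and 6.49 RPKM to 43.0, 26.6 and 33.4 RPKM. HSD17B2, which inactivates oestradiol and testosterone, went from 6.83, 4.14 and 19.2 RPKM to 170, 110 and 51.6 RPKM but had stood at 810, 245 and 300.1 RPKM at 0 h. With FMO1, GLYAT, SLC10A1 and TYMP it formed the 5 metabolic members at least 2-fold below 0 h at 24 h in all 3 prefixes. The 5 that ended at least 2-fold above 0 h were AKR1B7, ABCB1B, ACOT1, UST4R and GPX7; ABCB1B, a multidrug efflux pump, went from 9.19, 9.01 and 5.45 RPKM at 12 h to 42.4, 28.3 and 32.1 RPKM.

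Taken as whole lists, metabolism moved little beyond the other genes. The 9 metabolic lists held 250 tested genes, of which 26, or 10.4%, were risen members, against 3.88% of all tested genes, and 1 was a fallen member. Their median was 0.55, against 0.33 for all tested genes. After rescaling the median was 0.09, and 11 were 2-fold higher and 5 were 2-fold lower in all 3 pairs. No gene of the cholesterol synthesis list was a member in either direction, against 4.1% of all tested genes. By limma's test at an adjusted p under 0.05 9 of its 24 tested genes were higher, a smaller share than the 45.9% of all tested genes. None was lower, against 2.52% of all tested genes. Of 34 tested genes of fatty acid oxidation and ketogenesis ACOT1 alone was a member. Of 25 tested genes of gluconeogenesis and glycolysis PYGL, the liver glycogen phosphorylase, alone was one. These shares were 2.94% and 4%, against 3.88% of all tested genes. ACOT1 was listed at 0.01, 0.16 and 0.16 RPKM at 12 h and entered the comparison only through its 24 h columns. The other genes of both lists stayed under the limit in at least 1 pair. ECH1, HACL1 and ACSL1 were metabolic members outside these lists. G6PC, the last enzyme of glucose release, had log2 ratios of 1.96, 2.22 and 0.74, and PCK1, an early one, 0.62, 0.57 and 0.58. Of the 72 metabolic members, 27 were still 2-fold higher in all 3 pairs after rescaling, against 131 of the 167 cell cycle, DNA and chromatin members.

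**Figure D4:**
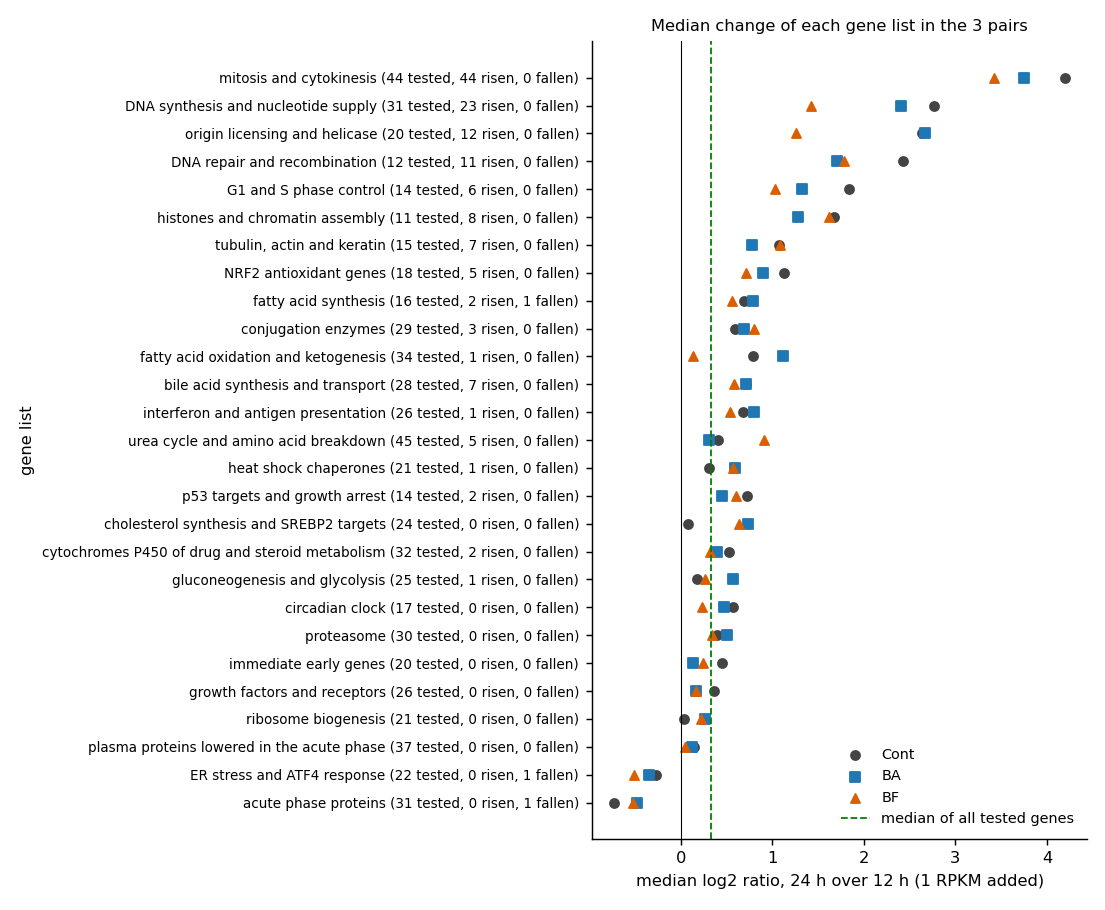
Median log2 ratio of 24 h over 12 h (x axis, 1 RPKM added) of the tested genes in each of 27 lists (y axis, with the counts tested, risen and fallen); each symbol is 1 pair, and the dashed line is the median of all tested genes, 0.33. The mitosis and cytokinesis list lies furthest right in every pair, and the acute phase and ER stress lists alone lie left of 0 in every pair.

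The 19 fallen members had the opposite course. At 12 h 9 of them were at least 2-fold above their 0 h level in all 3 prefixes, against 0.414% of all tested genes, and at 24 h 11 were within 2-fold of it in all 3, against 83.6% of all tested genes. By role, 7 are acute phase, immune or secreted proteins, 4 serve the endoplasmic reticulum (ER), 2 are metabolic and 6 are of other kinds. All 19 passed after rescaling as well. SLC13A5, which takes citrate into hepatocytes, was the only one to fall at least 4-fold in all 3 pairs, from 295, 224 and 99.1 RPKM to 22.9, 55.0 and 23.2 RPKM. SOD2, the mitochondrial superoxide dismutase, fell from 570.2, 481 and 368 RPKM to 136, 176 and 87.1 RPKM. LEAP2, a secreted liver peptide that acts at the ghrelin receptor, fell from 355, 347 and 150 RPKM to 51.3, 72.6 and 54.1 RPKM. In none of them did the columns at the 2 times overlap.

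A2M, the major acute phase protease inhibitor of the rat, was the most abundant fallen member, at 4637, 9188 and 7272 RPKM at 12 h and 1142, 4421 and 1272 RPKM at 24 h. At 0 h it had been listed at 7.61 RPKM in the Cont column and at 1892 and 1772 RPKM in the BA and BF columns, so that the Cont and BA columns stood above their start at 24 h and the BF column below it. AGT, the precursor of angiotensin, fell from 1700, 2650 and 1195 RPKM to 743, 1049 and 593 RPKM. CXCL1, which attracts neutrophils, fell from 176, 91.0 and 88.7 RPKM to 34.3, 32.3 and 25.5 RPKM. IL1R2, the decoy receptor of interleukin 1, and PRG4, a secreted proteoglycan, had mean log2 ratios of -1.52 and -1.29. The neutrophil markers summed to between 50.2 and 64.2 RPKM at 12 h and between 27.7 and 54.4 RPKM at 24 h; their part in these falls was not tested.

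Of the 31 tested acute phase genes A2M alone was a member, while 17 were lower and 1 was higher in all 3 pairs, and the list median of -0.50 lay 0.82 below that of all tested genes. By limma's test at an adjusted p under 0.05 11 of the 31 were lower and none was higher, against 2.52% of all tested genes lower. The chains of fibrinogen were among them: FGB was listed at 32075, 31943 and 28210 RPKM at 12 h, then at 13324, 19388 and 17881 RPKM at 24 h, with log2 ratios of -1.27, -0.72 and -0.66. SERPINA3N, a protease inhibitor, had log2 ratios of -2.03, -0.85 and -1.79, short of the limit in the BA pair only. After rescaling 10 of the 31 were at least 2-fold lower in all 3 pairs.

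Of 22 tested genes of ER stress and the ATF4 response CRELD2 was a member, 10 were lower in all 3 pairs and 4 were higher. CRELD2, which helps proteins fold in the ER, fell from 225, 163 and 207 RPKM to 85.2, 63.4 and 60.0 RPKM. HYOU1, an ER chaperone outside that list, fell from 212, 169 and 202 RPKM to 81.2, 72.0 and 72.6 RPKM, and FICD, which modifies the chaperone HSPA5, from 22.2, 17.9 and 16.9 RPKM to 5.70, 6.95 and 6.65 RPKM. HSPA5 itself had log2 ratios of -0.76, -0.62 and -0.60. BHLHA15, a transcription factor of secretory cells, fell from 13.1, 10.7 and 8.04 RPKM to 2.22, 3.06 and 2.85 RPKM. It is also a factor of the exocrine pancreas, whose markers summed to 173 RPKM in the BF column at 12 h and to at most 15.7 RPKM in the 24 h columns. BHLHA15 was lowest at 12 h in that BF column, and the part of pancreatic RNA in its fall was not tested.

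The other fallen members were SCD1, the desaturase that makes monounsaturated fatty acids, MARVELD1, SRMS, RCAN2, ARFIP2, LTC4S and HIST1H2BH. SCD1 fell from 91.7, 27.2 and 17.4 RPKM to 15.9, 5.01 and 7.02 RPKM. It was the only fallen member among 16 tested genes of fatty acid synthesis, of which 2, or 12.5%, were risen members, against 3.88% of all tested genes. HIST1H2BH, a histone H2B gene of the kind whose transcripts mostly lack a poly(A) tail, fell from 167, 134 and 118 RPKM to 45.7, 53.2 and 56.9 RPKM in these libraries made from poly(A)+ RNA, so its level is uncertain. Near the limit, AGT, HIST1H2BH and LTC4S passed with smallest log2 ratios of -1.01, -1.04 and -1.05, and DNAJB9, CCL24 and SARM1 missed it with -0.91, -0.92 and -0.94. In the other direction TIMELESS, CALM2 and ALDH1A7 passed at 1.00 and SMC1A, ACSF2 and GLE1 fell just short of 2-fold in 1 pair.

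Several lists held no member. None of 21 tested genes of ribosome biogenesis and none of 30 of the proteasome was a member, and their medians of 0.15 and 0.42, against 0.33 for all tested genes, turned to -0.29 and -0.05 after rescaling. None of 37 tested plasma proteins lowered in the acute phase, of 20 immediate early genes, of 17 genes of the circadian clock and of 26 growth factors and their receptors was a member. Over all tested genes 4.1% were members, so lists of these sizes would hold few or none at that share. HGF, a mitogen of hepatocytes, had log2 ratios of -1.10, -0.71 and -0.56, with 27.8, 29.9 and 15.4 RPKM at 12 h and 12.4, 17.9 and 10.1 RPKM at 24 h. Of 14 tested p53 targets CDKN1A and PHLDA3 were members, of 26 genes of the interferon response and antigen presentation PSMB9 was, and of 21 heat shock chaperones HSP90AA1 was. The shares of risen members in these lists were 14.3%, 3.85% and 4.76%, against 3.88% of all tested genes.

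Of the 76 other risen members, many carry only a locus name. RNASE4, a secreted ribonuclease, was the most abundant of them, at 78.2, 67.7 and 166 RPKM at 12 h and 622, 504 and 558 RPKM at 24 h, after 1870, 1072 and 1271 RPKM at 0 h. LGR4, a receptor of R-spondins that strengthens Wnt signalling, went from 9.85, 10.9 and 15.1 RPKM to 27.2, 24.3 and 31.5 RPKM, and FGF1 from 2.70, 3.32 and 4.73 RPKM to 11.9, 8.32 and 13.2 RPKM. Both were higher at 24 h in every prefix without overlap. After rescaling 33 of these 76 members and 8 of the 13 members of the cytoskeleton were still 2-fold higher in all 3 pairs.

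The size of the rise differed among the 3 pairs, but with 1 column per group and time these differences carry no test. The counts that follow were not rescaled. Per pair, 995 tested genes, or 11.8%, were at least 2-fold higher at 24 h in the Cont pair, 636 (7.52%) in the BA pair and 615 (7.27%) in the BF pair, and 110 (1.3%), 78 (0.922%) and 61 (0.721%) were at least 2-fold lower. In exactly 2 of the 3 pairs 328 genes were 2-fold higher, of which 161 missed the limit in BF, 132 in BA and 35 in Cont, and 38 were 2-fold lower, of which 24 missed it in BF. The median log2 ratio of the 5 cell cycle lists was 3.10 in the Cont pair, 2.73 in the BA pair and 1.81 in the BF pair. These pooled medians mix genes inside and outside the study's DNA replication gene set. For the 57 risen cell cycle, DNA and chromatin members in that set the medians were 3.42, 3.38 and 1.84. For the 110 not in it they were 2.88, 2.07 and 2.17, and the rise was larger in BF than in BA in 82 of these.

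Among the 167 risen cell cycle, DNA and chromatin members, the order of the BA and BF columns at 24 h split by whether a gene's symbol was in the study's own DNA replication gene set. Of the 57 members in that set 56 were lower in BF than in BA at 24 h, against 37.6% of all tested genes, with a median difference of -1.09 on the log2 scale, and KIF20A was the exception. Of the 110 members not in the set 108 were higher in BF than in BA, against 62% of all tested genes, with a median difference of 0.41. BA and Cont were close for genes in the set, with a median difference of -0.01 ± 0.13 (SD over the 57 genes), but BA was below Cont in all 110 genes not in the set, against 77.1% of all tested genes, with a median of -0.65 ± 0.23 (SD over the 110 genes). The same split ran through genes of like function. In the mitosis list BF was below BA in 17 of 18 members of the set and in none of the 26 others, and in the S phase lists in 26 of 26 and in 2 of 15.

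The split can be read from pairs of genes with related roles. AURKB, NUF2, CDC20 and PLK1 are in the set and were lowest in BF at 24 h, whereas CCNB1, CDC2, TOP2A and AURKA are not and were lowest in BA. Likewise PCNA, LIG1 and MCM5 are in it, and RRM1 and DUT are not. Beyond the members, 129 of the 133 tested genes of the set were lower in BF than in BA at 24 h. A further 9 tested genes are in the set under a symbol other than the one in the table, and of these 2 were lower in BF than in BA. Since the study compared this set between the groups on these samples, the set is not independent of them, and with 1 column per group and time the differences between groups have no test. All 167 were chosen because they rose in each pair, so the split bears on the size of the rise and on the order of the groups at 24 h, and not on its direction. What gave rise to the split was not tested. Whether the values of the set were made in the same way as those of the other genes cannot be told from the table, so the order of BF and BA in PCNA, MCM5, LIG1, CDKN1A and the other genes of the set is uncertain.

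At 0 h the same 110 genes also differed from the 57 in the BA column. BA was above Cont at 0 h in 95 of the 110 genes not in the set, against 35.1% of all tested genes, with a median difference of 0.56, and in 18 of the 57 genes in the set, with a median of -0.13. At 12 h the medians of BA minus Cont were 0.01 for the 110 genes and 0.00 for the 57. UHRF1, which is not in the set, was listed at 0.24, 4.54 and 0.18 RPKM at 0 h in the Cont, BA and BF columns, and NS5ATP9, the PCNA-associated factor, at 0.58, 7.86 and 0.33 RPKM. CCNA2, which is in the set, was listed at 0.51, 0.22 and 0.32 RPKM. Other genes of the set were high in BA at 0 h, among them MCM5 at 0.76, 11.8 and 0.34 RPKM and NUF2 at 0.32, 2.24 and 0.26 RPKM.

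**Figure D5:**
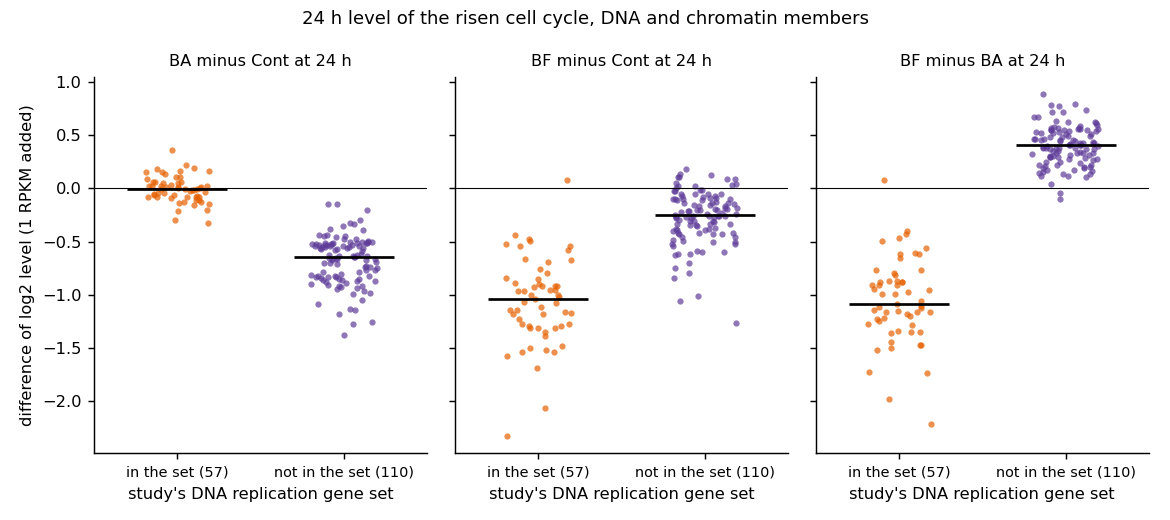
Difference of the log2 level at 24 h (y axis, 1 RPKM added) between pairs of surgical groups for the 167 risen cell cycle, DNA and chromatin members, by whether the symbol is in the study's DNA replication gene set (x axis); each point is 1 gene and each bar a median. For BF minus BA the medians are -1.09 for the 57 genes in the set and 0.41 for the 110 others, and for BA minus Cont they are -0.01 and -0.65.

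The metabolic members showed yet another order. At 24 h BF was above BA in 61 of the 72, against 62% of all tested genes, with a median difference of 0.38, and above Cont in 45 of them, against 28.4% of all. At 12 h BF was already above BA in 62, against 47.6% of all, with a median difference of 0.59, and the median log2 ratio of 24 h over 12 h was 1.81 in the Cont, 1.55 in the BA and 1.46 in the BF pair. AKR1B7, an aldose reductase-like enzyme, was listed at 1.60, 3.34 and 38.2 RPKM at 12 h, then at 63.2, 37.2 and 247 RPKM at 24 h, and its columns at the 2 times overlapped, as did those of CYP7A1, AKR1D1, YC2 and ALDH1A7. For the fallen members BF was below BA at 12 h in 17 of 19, against 52% of all tested genes, and at 24 h in 16 of 19, against 37.6%.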

How the data were processed

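RNA from whole rat liver was sequenced by the authors as single reads from poly(A)+ libraries, and the deposited table gives RPKM for 14692 genes in 12 columns, each combining 2 runs. The submitters' processing notes name CASAVA, Bowtie 0.12.2 and the builds rn4 and mm8, with no role given for either build; gene models and the handling of multiply mapped reads are not given in the sources used here. RPKM values are not counts, so no count model was used and depth is unknown.

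Of the genes listed, 2303 were at 0 in all columns and 1 had no value; 8459 with a 12-column mean of at least 1 RPKM were compared. Log2 ratios of 24 h over 12 h were taken within each prefix with 1 RPKM added, which understates the change of low genes. Members were at least 2-fold in the same direction in all 3 pairs. As a second reading, limma 3.58.1 (R 4.3.3) was fitted to log2(RPKM + 1) of the 6 columns with the prefix as a block and Benjamini-Hochberg adjustment at 0.05. Both steps were also run on simulated columns in which only well expressed genes were changed. These columns held no shift of the median gene and no difference between groups, so the run cannot speak to those features of the data. Median rescaling set the median tested gene equal in all columns.

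Members and the 27 gene lists and 9 marker lists were chosen with earlier results of these data known, and roles were assigned after their values were seen. Genes were named by rank of the smallest ratio (15 in each direction), up to 6 per list, the 5 most abundant in each direction, 3 on each side of the limit and 10 with opposite changes, plus PCNA, FOXM1, CYP7A1 and CCND1; others named were chosen after their values were seen, and 2 genes that this rule or these lists name are not reported here. Table symbols were matched to RefSeq (GRCr8) promoters by symbol or unique synonym. Other pseudocounts, filters, scalings, fold limits and leaving out each pair were tried. Python 3.11.15 with pandas 2.3.3 was used.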

Additional observations from a re-analysis of the deposited data

Results flagged for a closer look

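In 31 genes the level was at least 2-fold higher at 24 h than at 12 h in 1 pair and at least 2-fold lower in another. Of the 10 with the largest opposite changes, 9 are given here with the highest minus the lowest of their 3 log2 ratios, and in all of these the difference between pairs was not tested, since each pair is 1 column against 1 column. RPL30, a ribosomal protein, differed by 8.24, with 0.87, 34.6 and 33.1 RPKM at 12 h in the Cont, BA and BF columns and 21.0, 0.38 and 42.2 RPKM at 24 h. FAM111A differed by 6.50, with 0.13, 52.5 and 0.96 RPKM at 12 h and 22.6, 11.4 and 18.1 RPKM at 24 h. ADH6 differed by 5.87 and EPHX2, a soluble epoxide hydrolase, by 4.70. The Paneth cell defensins DEFA24 and DEFA9 differed by 5.08 and 4.09, REG3G, an intestinal lectin, by 4.30, LGALS4, a galectin of gut epithelium, by 3.93, and LOC691259, which has no named product, by 4.09. DEFA24 was listed at 8.95, 2.84 and 0.45 RPKM at 12 h, then at 1.00, 0.00 and 8.89 RPKM at 24 h, so the Cont column at 12 h and the BF column at 24 h were the high ones. None of these 9 genes is a member.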

How the results depend on the processing

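The member counts moved with the setting. With 5 RPKM added 173 risen and 11 fallen members were found, with a filter at a 12-column mean of at least 5 RPKM 211 risen, since the other 117 were then not tested, and with a filter on the 6 columns at 0 and 4 h, which was chosen after seeing the data, 227 risen and 19 fallen. Rescaling on the median tested gene gave 199 and 60, and rescaling on the total without the 10 most abundant genes gave 29 fallen. A 3-fold limit gave 148 and 1, a 1.5-fold limit 902 and 56, and a limit on the mean ratio 622 and 47. Leaving out each pair gave between 363 and 489 risen and between 23 and 43 fallen members, with 29 fallen without BA and 43 without BF. With 0.1 RPKM added, without a filter on low values and with the filter on the columns at 12 and 24 h the counts stayed within 1.5 times.

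By limma, 3880 genes were higher and 213 lower; rescaling on the median gene gave 617 and 855, no filter gave 136 lower, and leaving out a pair gave between 1402 and 2366 higher and between 78 and 190 lower, with the lowest counts without BA. Without Cont they were 1622 and 108. The median of 7 of the 27 lists changed sign after rescaling, to -0.29 for ribosome biogenesis, -0.053 for the proteasome, -0.0082 for cholesterol synthesis, -0.0096 for gluconeogenesis and glycolysis, -0.42 for plasma proteins, -0.10 for immediate early genes and -0.16 for growth factors. Of 105 named members 79 stayed 2-fold in all 3 pairs after rescaling, and all 105 did with 0.1 RPKM added. Rescaling assumes that the median gene did not move, and these data cannot settle that. The prefix paired the columns in these fits, and without it as a block limma called 3573 higher and 159 lower.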
